A study of Mus musculus with 12 samples.

Results

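The type I interferon-stimulated genes described here are 39 named mouse genes that encode antiviral sensors, effectors and regulators. They were taken from a list of gene symbols that was chosen with earlier results of these data known. A gene was kept where it reached at least 1 CPM (reads scaled to library size) in at least 3 of the 12 libraries of the deposited table. All 39 had a row and passed, out of 15232 genes that passed in the whole table of 24054 rows, and all 39 were at or above 1 CPM in every library. The libraries came from brain tumours that grew after tumour cells, the line ms7080 in the labels, had been injected into the striatum of female C57BL/6 mice. Tumour tissue was taken once an animal showed symptoms, so every group carried the same graft and was sampled at a clinical end point rather than at a fixed time. There were 4 groups of 3 libraries. Young hosts were 2 months old and untreated, and old hosts were 16 months old and untreated. The NMN group consisted of old hosts given nicotinamide mononucleotide, a precursor of the coenzyme NAD, at 300 mg/kg/day. The parabiosis group consisted of old hosts joined surgically to a partner mouse so that both shared a circulation, and no source used here gives the partner's age. Young hosts were bought from commercial breeders and old hosts came from an ageing colony, so age and supplier cannot be told apart. Groups are called young, old, NMN and parabiosis below, and values in triplets follow the replicate numbers in the labels.

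Type I interferons are secreted proteins that bind a receptor made of Ifnar1 and Ifnar2 on nearly every cell. The receptor's kinases Jak1 and Tyk2 activate Stat2, which acts with Irf9 in a complex that binds a short DNA element, the interferon-stimulated response element, in front of the genes described here. In the brain, microglia, astrocytes, endothelial cells and infiltrating leukocytes can all mount the response. Interferon gamma, the type II interferon made by T and NK cells, acts through another receptor, and it shares part of its target genes with the type I response.

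Reads recovered from the steps between CPM values summed to 18566096 to 26779406 per library over the rows of the table. On this scale 3 reads corresponded to 0.100 to 0.143 CPM. Xist, the X-inactivation RNA of female cells, stood at 202 and 164 CPM in young replicates 1 and 2 but at 5.33 CPM in young replicate 3, and at 1.88 and 2.76 CPM in old replicates 1 and 2 against 380 CPM in old replicate 3. It lay between 499 and 1127 CPM in the NMN and parabiosis libraries. Young replicate 3 and old replicates 1 and 2 were thus far below the other libraries although all hosts were labelled female, while the Y-linked gene Ddx3y was read in all 12 libraries at 34.0 to 132 CPM. The list's medians in the main comparisons below are therefore given with and without these 3 libraries. Without them the old group is 1 library, whose spread is assumed to equal that of the other groups. In bulk tissue, fewer cells of a type and less RNA per cell cannot be told apart. The 12 libraries came from 12 mice, 3 in each group, and were made from total RNA after ribosomal RNA had been removed.

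RefSeq (GRCm38.p6) promoter windows, from 250 bases before to 50 bases after a transcript's start, were matched for 28 of the 39 genes, 32 windows in all. They were searched on both strands for the letters GAAA, any 2 bases and GAAA again, the core of the response element, with overlapping matches counted. Of these windows 14, from 13 genes, held a match, or 43.8%, against 3.44% of all 32851 promoters in the table and 3.08% of the promoters of genes that passed the filter. A match describes letters and not a bound site, and a window without one says only that the letters are not in it. No window was matched for Dhx58, Zbp1, Oas1b, Oas2, Mx1, Mx2, Usp18, Parp9, Parp14, Ifi27 and Rtp4. The 160 bases up to the start are shown for 5 genes chosen among those with a match there. They are on the gene's own strand, with matches in capitals (GAAA pairs read along the gene, TTTC pairs on the opposite strand). Rsad2 had the smallest p of the list in the NMN comparison, Ifit1 and Isg15 are standard members, Oas1a varied widely and Oas3 hardly varied. They lie at chr12:26456453-26456612 (minus strand), chr19:34640729-34640888 (plus), chr4:156200819-156200978 (minus), chr5:120907526-120907685 (minus) and chr5:120777660-120777819 (minus).
Rsad2: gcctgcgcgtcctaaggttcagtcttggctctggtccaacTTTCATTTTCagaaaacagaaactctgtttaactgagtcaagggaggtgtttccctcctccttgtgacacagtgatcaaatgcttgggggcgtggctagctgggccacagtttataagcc
Ifit1: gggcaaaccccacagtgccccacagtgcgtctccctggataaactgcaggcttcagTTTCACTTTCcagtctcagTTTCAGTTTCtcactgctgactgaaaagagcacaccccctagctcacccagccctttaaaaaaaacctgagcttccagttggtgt
Isg15: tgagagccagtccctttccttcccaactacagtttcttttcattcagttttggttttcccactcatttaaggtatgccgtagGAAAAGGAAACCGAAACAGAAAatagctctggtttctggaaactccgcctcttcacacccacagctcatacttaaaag
Oas1a: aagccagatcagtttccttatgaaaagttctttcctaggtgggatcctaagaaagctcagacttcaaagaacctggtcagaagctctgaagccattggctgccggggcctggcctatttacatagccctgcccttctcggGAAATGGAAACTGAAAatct
Oas3: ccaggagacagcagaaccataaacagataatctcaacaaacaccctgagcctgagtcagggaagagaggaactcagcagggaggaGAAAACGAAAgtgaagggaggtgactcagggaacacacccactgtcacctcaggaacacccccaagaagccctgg

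Isg15 carried 3 overlapping matches between 78 and 57 bases before its start, Ifit1 held 2 matches on the opposite strand between 104 and 76 bases before it, and Oas1a held 2 overlapping ones that ended 5 bases before it. Rsad2 and Oas3 held 1 match each. Bst2 and Ifit3, with 2 matches each, Trim30a and Stat2 completed the genes with a match before the start, and in Ddx58, Eif2ak2, Ifih1, Ifitm3 and a second Trim30a window it lay after the start. For NMN against old the median log2 difference was -0.68 over the 13 genes with a match and -0.62 over the 15 with a window and no match. For parabiosis against NMN these medians were 1.10 and 0.82.

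**Figure D1:**
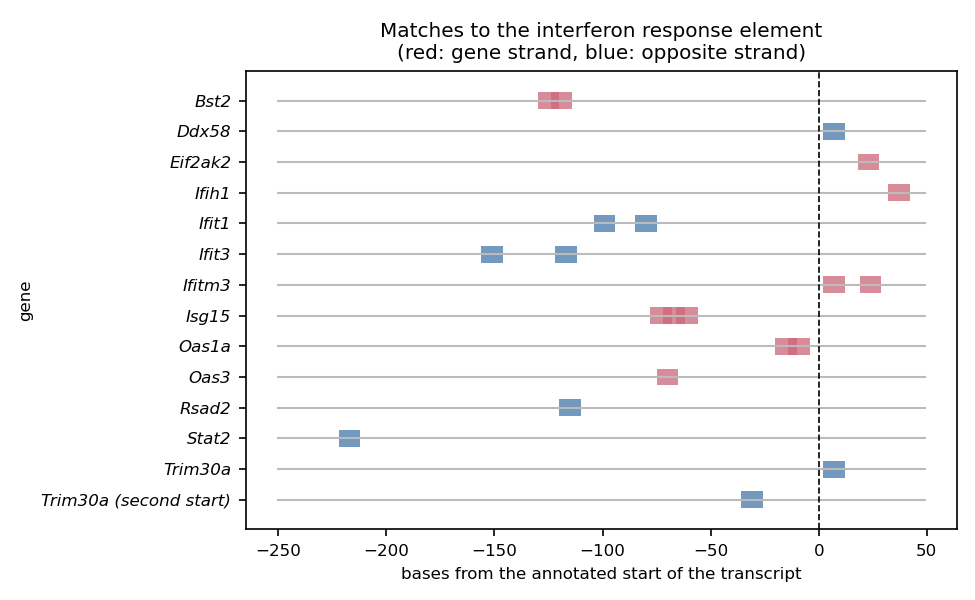
Positions of matches to the response element in the 14 promoter windows that held one, in bases from the annotated transcript start (dashed line). Bst2, Isg15 and Oas1a carry overlapping matches close before the start.

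Single libraries stood high or low for most of the 39 genes at once. A gene's level in a library relative to its mean over the 12 libraries, on the log2(CPM + 1) scale, had a median over the list of 0.94 in parabiosis replicate 1, the highest of all libraries, and 0.46 and 0.45 in old replicates 1 and 2. It was lowest in young replicate 3, at -0.89, and in NMN replicate 3, at -0.63. Parabiosis replicate 1 was the highest of 12 libraries for 35 of the 39 genes, where 7.16% of all genes had their highest value. Young replicate 3 was the lowest for 21, where 12.7% of all genes had their lowest value. Old replicate 1 exceeded old replicate 3 for all 39 genes, against 51.3% of all genes. Young replicate 1 exceeded young replicate 3 for 38 of 39, against 49.8% of all genes. The 2 old libraries with little Xist were thus high for their group while the young library with little Xist was low for its group. The standard deviation of a gene over the 12 libraries had a median of 0.59 on this log2 scale, against 0.25 for all genes, and 37 of the 39 lay above that level. The ratio of a gene's highest to its lowest library ran from 1.56 for Oas3 to 35.7 for Zbp1, with a median of 4.09.

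**Figure D2:**
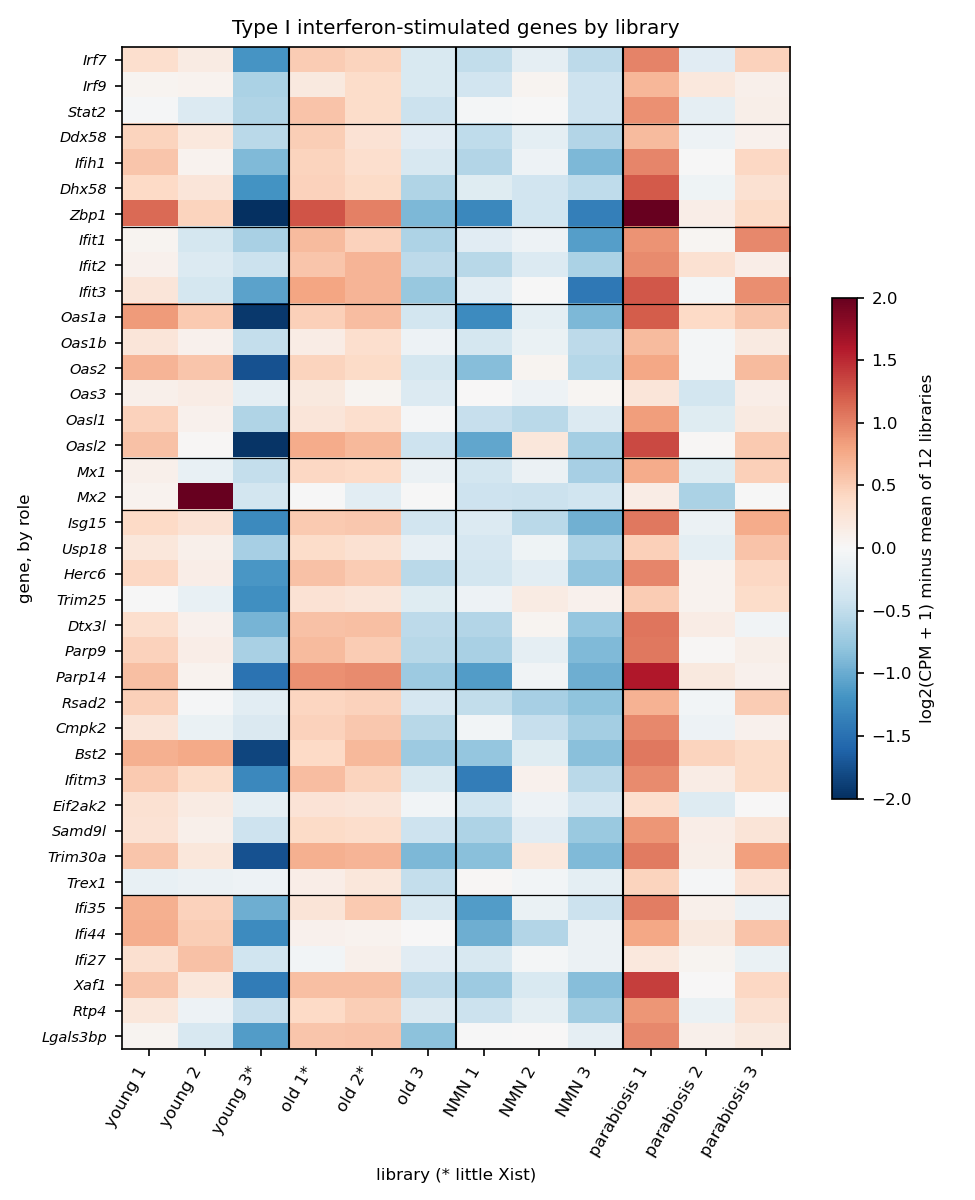
Level of each of the 39 genes in each library, as log2(CPM + 1) minus the gene's mean over 12 libraries, with colours limited to 2 units either way and genes ordered by role (horizontal lines part the roles, vertical lines the groups). Parabiosis replicate 1 and old replicates 1 and 2 are high, young replicate 3 and NMN replicate 3 are low, and Mx2 departs from the rest in young replicate 2.

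The age comparison asked whether tumours of old hosts carried a different interferon response from those of young hosts. The means were higher in old tumours for 36 of the 39 genes, where 53.0% of all genes were higher, with a median log2 difference of 0.32 against 0.015 for all genes, but none passed the test. limma called 0 of the 39 at an adjusted p under 0.05, where 0% of all genes were called, and 0 had an unadjusted p under 0.05, where 6.96% of all genes did. edgeR and DESeq2 on the recovered reads also called 0. With 1 library left out, limma's count at an unadjusted p under 0.05 was highest, at 5, without old replicate 3 (8.8% of all genes). The libraries of the groups did not separate for any of the 39 genes, against 6.95% of all genes higher and 6.60% lower without overlap. Trim25, a ubiquitin ligase that activates the RNA sensor RIG-I, had the smallest p. It stood at 13, 11.8 and 5.03 CPM in the young libraries, 16.3, 15.7 and 11.0 in the untreated old, 12.3, 14.9 and 14.1 with NMN and 19.2, 13.9 and 17.3 with parabiosis. Young replicate 3 was far below every other library, and the young and old libraries overlapped. The log2 difference was 0.56 ± 0.29 (SE), with an adjusted p of 0.749. Stat2, a signal transducer specific to type I and III interferons, was at 41.2, 34.4 and 27.4 CPM in the young libraries, 63.0, 54.4 and 30.8 in the untreated old, 40.8, 41.8 and 31.1 with NMN and 79.8, 36.7 and 45.3 with parabiosis. The 2 old libraries with little Xist were the highest of both groups and old replicate 3 lay within the young range, with a log2 difference of 0.47 ± 0.31 (SE) and an adjusted p of 0.814.

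The sign of the median age difference changed with the libraries included. Without these 3 libraries all 39 genes were lower in old replicate 3 than in the mean of young replicates 1 and 2, and the median was -0.63, with 0 genes called. Leaving out young replicate 3 alone gave a median of -0.087 with 15 genes above 0, and leaving out old replicate 1 or 2 alone gave 0.19 and 0.21. It was 0.56 without young replicate 1 and 0.59 without old replicate 3. Marker levels of other cell types were also compared, and the summed ranges of young and old libraries overlapped. The 9 microglia markers summed to 199 to 260 CPM in young and 259 to 346 CPM in old libraries, the 12 neuronal ones to 815 to 1645 and 1353 to 1805 CPM, and the 9 oligodendrocyte ones to 200.3 to 585 and 379 to 490.0 CPM, with none at 0. Their median log2 differences for old against young were 0.67, 1.24 and 0.96, and that of T and NK markers was 0.26. Of 12 T and NK markers 7 passed the filter, and the summed level of all 12 was 12.9, 9.95 and 4.22 CPM in the young libraries and 16.7, 14.8 and 6.36 CPM in the old ones, with 5 of the 12 at 0 in young replicate 3 (Cd3e, Ncr1, Nkg7, Gzmb and Prf1) and 3 in old replicate 3 (Cd3g, Ncr1 and Gzmb). Their part in the result was not tested.

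Tumours of NMN-treated hosts had lower means than those of untreated old hosts for all 39 genes, where 48.4% of all genes were lower, with a median log2 difference of -0.63 against 0.011 for all genes. The medians were -0.65 for the 4 sensors, -0.72 for the 3 Ifit genes, -0.61 for the 6 oligoadenylate synthetase genes, -0.65 for the 8 effectors and -0.34 for the 3 transcription regulators. Without the libraries with little Xist these medians were -0.16, 0.15, -0.17, 0.0020 and 0.049. No gene was called by limma, where 0% of all genes were called, nor by edgeR or DESeq2. At an unadjusted p under 0.05, 6 of the 39 were lower (Rsad2, Eif2ak2, Ifit2, Samd9l, Mx1 and Rtp4), where 3.23% of all genes were. Counted in either direction, 6 of the 39 had such a p, against 10.3% of all genes. This count was 1 without old replicate 1 (8.53% of all genes), old replicate 2 (4.31%), NMN replicate 1 (5.04%) or NMN replicate 3 (8.68%). It was 2 without young replicate 2 (9.11%) and 3 without parabiosis replicate 3 (13.4%). It rose to 17 without young replicate 3 (13.8%) and 19 without old replicate 3 (9.81%). In the fit of only the NMN and old groups it was 17 (12.5%). For 7 (Oas1b, Oasl1, Mx1, Mx2, Rsad2, Eif2ak2 and Ifi44) all NMN libraries lay below all old ones, where 6.92% of all genes did.

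Rsad2 encodes viperin, an enzyme that makes a chain-terminating nucleotide against viral polymerases. Its level was 54.5, 38.2 and 33.6 CPM in the young libraries, 52.7, 53.8 and 30.7 in the untreated old, 27.3, 24.3 and 21.8 with NMN and 63.6, 37.6 and 55.9 with parabiosis. The NMN libraries were the 3 lowest of all 12 and did not overlap with any other group, while old replicate 3 lay only slightly above them. The log2 difference to old was -0.84 ± 0.26 (SE), with an unadjusted p of 0.00864 and an adjusted p of 0.48 in limma. Eif2ak2 encodes PKR, a kinase that stops translation when it binds double-stranded RNA. It was at 141, 128 and 100.5 CPM in the young libraries, 138, 136 and 110.3 in the untreated old, 86.6, 106 and 89.9 with NMN and 144, 94.8 and 115 with parabiosis. All NMN libraries were below all old ones, with a log2 difference of -0.44 ± 0.18 (SE) with an adjusted p of 0.48.

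Ifit2, whose protein binds RNA and holds back translation, was at 62.0, 47.8 and 42.7 CPM in the young libraries, 85.5, 93.7 and 39.9 in the untreated old, 39.3, 47.8 and 37.2 with NMN and 112, 72.3 and 63.5 with parabiosis. Old replicates 1 and 2 were high, and old replicate 3 fell inside the NMN range. Samd9l, a restriction factor of viral translation, was at 116, 102 and 71.3 CPM in the young libraries, 124, 121 and 70.6 in the untreated old, 61.6, 81.1 and 56.5 with NMN and 176, 104 and 114 with parabiosis. Here too old replicate 3 lay within the NMN libraries, and the log2 differences to old were -0.72 ± 0.31 (SE) for Ifit2 and -0.63 ± 0.28 (SE) for Samd9l, with an adjusted p of 0.48 each.

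Against old replicate 3 alone, once the libraries with little Xist were left out, the difference was near 0. The median over the 39 genes was then -0.094, with 17 above and 22 below 0. Ifit1 and Ifit3 were then at 0.15 and 0.20 and Lgals3bp at 0.76, all above 0, and Rsad2 was at -0.32. With 1 old library left out in turn the median ran from -0.47 without old replicate 1 to -0.89 without old replicate 3. Neuronal markers had a median log2 difference of 1.11 for NMN against old and 0.86 for parabiosis against old. Their smallest adjusted p in limma for NMN against old was 0.48. The 12 measured summed to 2052 to 4139 CPM with NMN against 1353 to 1805 CPM in old libraries, with none at 0. T and NK markers summed to 4.38, 8.52 and 4.92 CPM with NMN, below old replicates 1 and 2 and around old replicate 3, with Nkg7 at 0 in NMN replicate 1 and Cd3g, Gzmb and Prf1 in NMN replicate 3. The 8 markers of progenitor-like tumour cells summed to 1484 to 2202 CPM with NMN against 2252 to 2320 CPM in old libraries, with none at 0. Monocyte and macrophage markers summed to 33.6 to 127 CPM with NMN against 101 to 149 CPM in old libraries. The part of these cell types in the result was not tested.

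**Figure D3:**
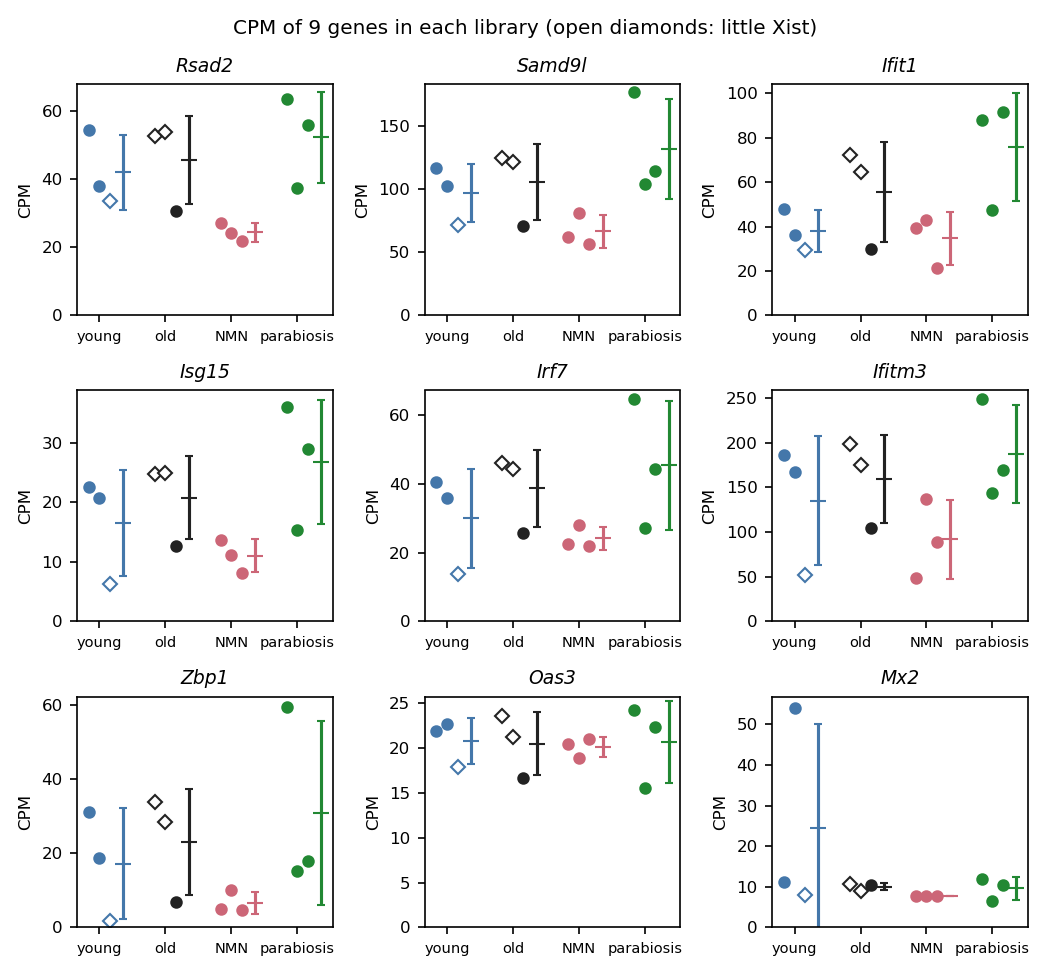
CPM of 9 interferon-stimulated genes in each library by group (points; open diamonds are the 3 libraries with little Xist), with the mean and SD of each group beside them; the lower SD bar of Mx2 in young tumours runs below the axis. The NMN libraries of Rsad2 lie below all others, Oas3 is level across groups, and 1 young library stands alone for Mx2.

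Tumours of hosts in parabiosis had higher means than untreated old tumours for 37 of the 39 genes, where 54.1% of all genes were higher, with a median log2 difference of 0.23 against 0.021 for all genes. The comparison used the same untreated old libraries as that of NMN. limma called 0, where 0% of all genes were called, and 0 had an unadjusted p under 0.05, where 5.61% of all genes did. edgeR and DESeq2 also called 0 of the 39. Ifi44 alone had all parabiosis libraries above all old ones, where 6.99% of all genes did. Ifi44, named for its induction by interferon, was at 27.2, 23 and 6.14 CPM in the young libraries, 17.1, 16.9 and 16.2 in the untreated old, 7.68, 10.3 and 14.6 with NMN and 28.1, 18.4 and 24.2 with parabiosis. Its old libraries were close together and the parabiosis libraries started just above them. The log2 difference was 0.45 ± 0.43 (SE), with an adjusted p of 0.914.

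Trex1, the exonuclease that clears cytosolic DNA, had the smallest p in this comparison. It stood at 5.63, 5.76 and 5.84 CPM in the young libraries, 7.08, 7.58 and 4.29 in the untreated old, 6.48, 6.07 and 5.42 with NMN and 8.94, 6.21 and 7.84 with parabiosis. Old replicate 3 was the lowest of all libraries, old replicates 1 and 2 fell inside the parabiosis range, and the log2 difference was 0.26 ± 0.19 (SE) with an adjusted p of 0.904. Ifit1, which recognises viral RNA caps, was at 48.1, 36.4 and 29.3 CPM in the young libraries, 72.3, 64.5 and 29.8 in the untreated old, 39.5, 43.1 and 21.2 with NMN and 87.7, 47.6 and 91.5 with parabiosis. Parabiosis replicates 1 and 3 were the 2 highest of all libraries and replicate 2 lay within the old range, with a log2 difference of 0.48 ± 0.39 (SE) and an adjusted p of 0.904.

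Single libraries set the size of this difference. Without parabiosis replicate 1 the median was 0.014, with 20 genes above and 19 below 0, and without old replicate 3 it was -0.055 with 14 above 0. It was 0.38 without old replicate 1 or old replicate 2 and 0.41 without parabiosis replicate 2. Without the 3 libraries with little Xist it was 0.80, with 38 genes above 0 and 0 called, and 14 had an unadjusted p under 0.05, where 8.08% of all genes did. T and NK markers summed to 25.3, 8.18 and 5.85 CPM with parabiosis, highest in the library with the highest interferon-stimulated genes, and Ncr1 was at 0 in replicate 3. The 9 monocyte and macrophage markers summed to 118 to 201 CPM with parabiosis against 101 to 149 CPM in old libraries, with none at 0. Neuronal markers summed to 1734 to 3195 CPM with parabiosis against 1353 to 1805 CPM in old libraries. Their part in the result was not tested.

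The remaining pairs share libraries with those above, so their values are given side by side. NMN against young had a median of -0.32 (-0.014 for all genes), with 35 of 39 below 0, where 51.7% of all genes were. It was the only comparison in which limma called genes at all, 8.15% of them, and 0 of the 39 were called, with 1, Rsad2, at an unadjusted p under 0.05 and lower, where 7.75% of all genes were. DESeq2 called 2 of the 39, Mx2 and Rsad2, where it called 15.5% of all genes, and edgeR called 0. For Mx2, young replicate 2 was at 54.1 CPM and the other 11 libraries at 6.51 to 11.9 CPM. Mx2 and Rsad2 were also the 2 genes whose NMN libraries all lay below the young ones, where 10.7% of all genes did. Without young replicate 3, or without all 3 libraries with little Xist, the median was -0.70 and limma called 4 of the 39, all lower: Oas1a, Bst2, Ifi44 and Ifi27. Of all genes, 14% were called without young replicate 3 and 8.81% without the 3 libraries. Without all 3 libraries the log2 difference was -1.47 for Oas1a (adjusted p = 0.0423), -1.35 for Bst2 (adjusted p = 0.019), -1.17 for Ifi44 (adjusted p = 0.0386) and -0.60 for Ifi27 (adjusted p = 0.0477). The median was -0.069 without young replicate 1, -0.19 without young replicate 2 and -0.21 without NMN replicate 3.

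Parabiosis against young had a median of 0.56 (0.011 for all genes), with 35 of 39 above 0, where 51.6% of all genes were. limma called 0, as it did for 0% of all genes, and edgeR and DESeq2 called 0 of the 39. Ifit1 and Trim25 were higher at an unadjusted p under 0.05, where 12.6% of all genes were. Irf9, Ifit2, Trim25, Trex1 and Lgals3bp were higher without overlap, where 13.7% of all genes were. The shares of the 39 genes were at or below those of all genes in both counts. The median was 0.30 without parabiosis replicate 1 and 0.16 without young replicate 3 or without all 3 libraries with little Xist.

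The widest gap in the median lay between both treated groups, whose means include none of the libraries with little Xist. All 39 genes had higher means with parabiosis than with NMN, where 45.9% of all genes had, with a median log2 difference of 0.89 against -0.026 for all genes. limma called 0, where 0% of all genes were called, although 18 of 39 had an unadjusted p under 0.05 and were higher, where 5.00% of all genes were. The fit's variance draws on all 12 libraries. Counted in either direction, 18 of the 39 had such a p, against 9.65% of all genes. Without young replicate 3 this count was 29 (12.4% of all genes). It was 8 without NMN replicate 1 (8.14%), 4 without NMN replicate 3 (7.81%) and 9 without parabiosis replicate 3 (17.3%). For 23 genes all parabiosis libraries lay above all NMN ones, where 7.83% of all genes did, among them all 4 sensors, 5 of the 6 genes of other roles and 4 of 8 effectors. edgeR called 0 and DESeq2 2, Rsad2 and Samd9l, where it called 1.52% of all genes, with adjusted p of 0.0119 and 0.0425. Rsad2 had a log2 difference of 1.04 ± 0.26 (SE) and the smallest adjusted p of the list in limma, 0.284. The median was 0.55 without parabiosis replicate 1, with 2 of the 39 at an unadjusted p under 0.05, where 6.03% of all genes were. It was 0.80 to 1.10 without another library of either group. Over the 4 groups together limma's F test called 0 of the 39, where 0% of all genes were called. Rsad2, Samd9l and Ifit2 had an unadjusted p under 0.05, where 18.3% of all genes did, and DESeq2's test over the groups called 1 of the 39 and 1614 of all genes.

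**Figure D4:**
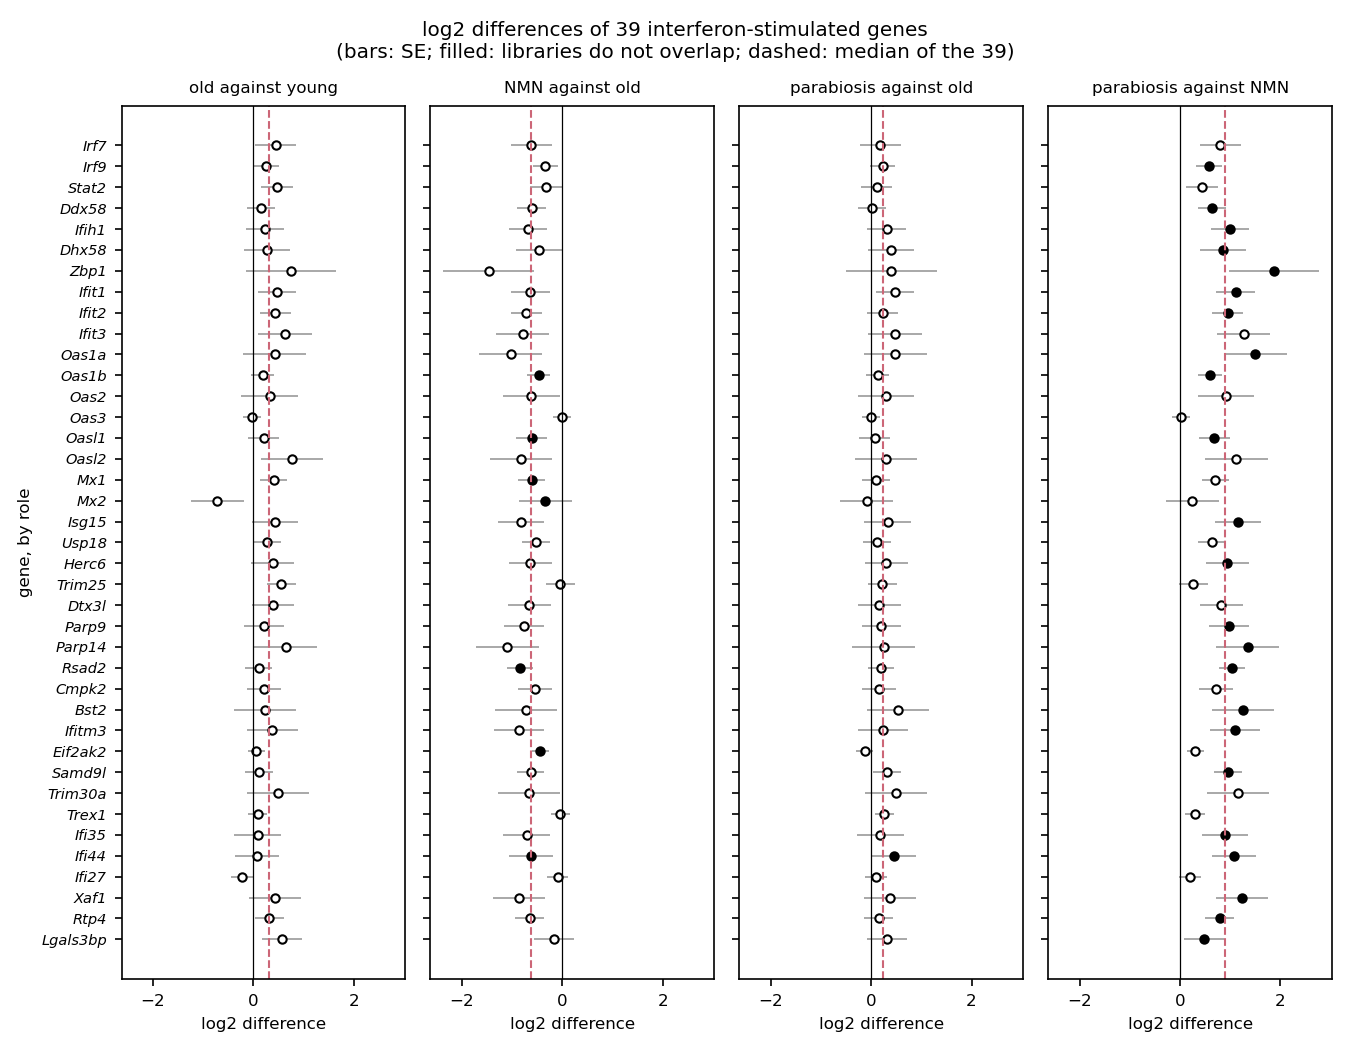
log2 differences of the 39 genes on the log2(CPM + 1) scale in 4 comparisons, with the standard error of the fit; filled points are genes whose libraries do not overlap and the dashed line is the median of the list. All points lie left of 0 for NMN against old and right of 0 for parabiosis against NMN, and 0 genes were called in any panel.

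Among the transcription regulators, Irf7, which amplifies interferon production, was at 40.5, 35.9 and 13.6 CPM in the young libraries, 46.0, 44.2 and 25.7 in the untreated old, 22.5, 28.0 and 22.0 with NMN and 64.5, 27.1 and 44.3 with parabiosis. Parabiosis replicate 1 was highest and young replicate 3 lowest, and the 3 NMN libraries overlapped with both old and parabiosis libraries. Its log2 difference was -0.62 ± 0.41 (SE) for NMN against old (adjusted p = 0.532) and 0.80 ± 0.41 (SE) for parabiosis against NMN (adjusted p = 0.559). Irf9, the DNA-binding part of the complex with Stat2, ranged from 24.2 to 61.6 CPM and Stat2 from 27.4 to 79.8 CPM, and their differences to old were -0.34 and -0.32 with NMN.

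The sensors detect foreign or misplaced nucleic acids. Ifih1 (MDA5) recognises long double-stranded RNA and was at 83.3, 59.0 and 29.9 CPM in the young libraries, 76.7, 70.9 and 44.9 in the untreated old, 37.1, 52.1 and 29.5 with NMN and 112, 55.5 and 75.1 with parabiosis. Every parabiosis library exceeded every NMN library, and the log2 difference between these groups was 0.99 ± 0.38 (SE) with an adjusted p of 0.444. Ddx58 (RIG-I) ranged from 36.2 to 85.0 CPM and Dhx58 (LGP2), a modulator of both, from 2.81 to 19.3 CPM. Zbp1, which binds nucleic acids in the Z conformation and can trigger necroptosis, had the widest range of the list, from 1.66 CPM (39 reads) in young replicate 3 to 59.4 CPM in parabiosis replicate 1. Its means were 17.2 ± 14.9 CPM in young, 23 ± 14.3 in old, 6.61 ± 3.08 with NMN and 30.8 ± 24.8 with parabiosis (SD, n = 3 each). Old replicate 3 lay among the NMN libraries, and the NMN difference of -1.47 ± 0.90 (SE), the largest of the list, had an adjusted p of 0.515.

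The Ifit genes lie on chromosome 19 within 99.5 kb (34550550 to 34650009, GRCm38.p6). Ifit3, a partner of Ifit1 in binding RNA, was at 66.7, 43.8 and 26.2 CPM in the young libraries, 98.1, 90.3 and 32.9 in the untreated old, 48.7, 55.7 and 20.2 with NMN and 135, 54.5 and 109 with parabiosis. Parabiosis replicates 1 and 3 were highest and NMN replicate 3 lowest, and old replicate 3 fell among the NMN libraries. Reads that match several similar genes are divided among them by RSEM, so the levels of Ifit3, which has a near-identical copy in the mouse, and of the clustered Oas, Mx, Trim30 and Ifi27 families are uncertain. All 3 Ifit genes had an unadjusted p under 0.05 for parabiosis against NMN, with log2 differences of 1.11 for Ifit1, 0.94 for Ifit2 and 1.26 for Ifit3 and adjusted p from 0.373 to 0.486.

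The oligoadenylate synthetases make a second messenger that activates RNase L. Oas1a, Oas1b, Oas2 and Oas3 lie within 177 kb of chromosome 5 (120730333 to 120907544), and Oasl1 and Oasl2 lie 10897 bases apart elsewhere on it. Oasl2 was at 123, 83.1 and 20.2 CPM in the young libraries, 137, 128 and 61.0 in the untreated old, 39.4, 95.7 and 50.5 with NMN and 206, 82.8 and 118 with parabiosis. Young replicate 3 and NMN replicate 1 were lowest, and all pairs of groups overlapped. Oas3, whose window also held a match and which lies among the other Oas genes, was at 21.8, 22.7 and 17.9 CPM in the young libraries, 23.5, 21.2 and 16.6 in the untreated old, 20.4, 18.9 and 21.0 with NMN and 24.2, 15.5 and 22.3 with parabiosis. All groups overlapped, with means of 20.8 ± 2.56, 20.5 ± 3.51, 20.1 ± 1.11 and 20.7 ± 4.59 CPM in the order above (SD, n = 3 each). Oas1a, in the same cluster, spanned 2.17 to 27.1 CPM, a 12.5-fold range, against 1.56-fold for Oas3. Oas1b, which carries a premature stop codon in C57BL/6 mice, ranged from 3.63 to 9.29 CPM, and Oasl1, which restrains Irf7 translation in mice, from 3.71 to 11.8 CPM. Both had all NMN libraries below all old ones, with log2 differences of -0.47 and -0.61 and adjusted p of 0.488 and 0.489.

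The Mx genes encode dynamin-like GTPases, and C57BL/6 mice carry a defective Mx1 allele, so only its transcript is described. Mx1 was low, at 4.99, 4.05 and 3.03 CPM in the young libraries, 6.43, 6.35 and 4.18 in the untreated old, 3.34, 4.16 and 2.54 with NMN and 8.37, 3.74 and 6.75 with parabiosis. All NMN libraries lay below all old ones, with a log2 difference of -0.61 ± 0.27 (SE) and an adjusted p of 0.48. Mx2 was at 11.2, 54.1 and 7.97 CPM in the young libraries, 10.6, 9.08 and 10.5 in the untreated old, 7.76, 7.66 and 7.84 with NMN and 11.9, 6.51 and 10.6 with parabiosis. Young replicate 2 was 4.54 times the next highest library, and the other 11 lay between 6.51 and 11.9 CPM. The age difference of -0.72 became 0.081 without that library.

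Isg15 is a ubiquitin-like protein that is attached to other proteins and also secreted. It was at 22.5, 20.7 and 6.35 CPM in the young libraries, 24.7, 24.9 and 12.7 in the untreated old, 13.7, 11.2 and 8.13 with NMN and 36, 15.4 and 28.9 with parabiosis. Every parabiosis library exceeded every NMN library, with a log2 difference of 1.15 ± 0.46 (SE) and an adjusted p of 0.465. Usp18, which removes Isg15 and damps the receptor, ranged from 14.1 to 34.2 CPM, and Herc6, the mouse ligase for Isg15, from 22.3 to 101 CPM. Parp14, a mono-ADP-ribosyltransferase, was at 93.1, 63.8 and 21.2 CPM in the young libraries, 115, 118 and 36.5 in the untreated old, 27.7, 57.8 and 30.4 with NMN and 187, 69.7 and 64.5 with parabiosis. Parabiosis replicate 1 was far above all others, and old replicate 3 lay among the NMN libraries. Dtx3l and Parp9, which form a ligase complex and whose genes overlap by 558 bases on chromosome 16, ranged from 32.3 to 132 CPM and 21.2 to 84.3 CPM. In the NMN comparison Trim25 had a log2 difference of -0.04 against -1.10 to -0.52 for the other 6.

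Ifitm3 blocks the fusion of viral and host membranes. It was at 186, 167 and 52.3 CPM in the young libraries, 199, 175 and 104 in the untreated old, 49.2, 138 and 88.8 with NMN and 249, 143 and 169 with parabiosis. Young replicate 3 and NMN replicate 1 were the lowest libraries, and the log2 difference of parabiosis against NMN was 1.10 ± 0.50 (SE) with an adjusted p of 0.52. Rsad2 lies 12664 bases from Cmpk2, a mitochondrial nucleotide kinase. Cmpk2 was -0.55 with NMN against old where Rsad2 was -0.84. Bst2 (tetherin), which holds budding virions at the cell surface, ranged from 9.63 to 78.6 CPM, and Trim30a, a mouse gene that restrains innate signalling, from 6.82 to 53.0 CPM.

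Lgals3bp, a secreted glycoprotein that binds galectins, was at 103, 78.7 and 45.2 CPM in the young libraries, 146, 148 and 55.8 in the untreated old, 98.5, 99.6 and 87.6 with NMN and 194, 106 and 113 with parabiosis. The NMN libraries were tightly grouped and lay above old replicate 3 but below old replicates 1 and 2. Rtp4, a receptor chaperone, ranged from 19.6 to 60.6 CPM, Xaf1, a promoter of cell death, from 15.5 to 113 CPM, and Ifi35 from 8.09 to 39.1 CPM. Ifi27 ranged from 56.9 to 113 CPM and was, with Mx2 and Oas3, 1 of 3 genes with a lower mean in old than in young tumours. For parabiosis against NMN the log2 differences of these genes were 0.79 for Rtp4, 1.23 for Xaf1, 0.89 for Ifi35 and 0.20 for Ifi27.

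The interferons themselves were hardly read. Of 20 ligand genes listed, 0 passed the filter, and 8 of the 17 type I ligands were at 0 in all libraries. Ifnb1, the first type I interferon made in most cells, had 10 reads in all, in 7 libraries and never more than 2. Ifna13 had 30 reads in all, and Ifnk, a keratinocyte interferon, 107. Ifng, the type II interferon, had 7, 9 and 0 reads in the young libraries, 6, 7 and 0 in the old, 1, 3 and 0 with NMN and 26, 7 and 2 with parabiosis. Parabiosis replicate 1 held the most Ifng reads, and 6 of the 12 libraries held 3 or fewer.

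The receptors and kinases were read in every library. Ifnar1 ranged from 139 to 178 CPM, and its log2 differences to old were 0.03 with NMN and -0.17 with parabiosis. Ifnar2, the other chain, ranged from 18.9 to 28.1 CPM. Of 50 pathway genes outside the list 29 passed the filter, and limma called 0 of them in old against young, NMN against old or parabiosis against old, with 1, 2 and 2 at an unadjusted p under 0.05, where 6.96%, 10.3% and 5.61% of all genes were. These were Ifngr2, a chain of the interferon gamma receptor (-0.26 for old against young and 0.31 for parabiosis against old), its partner Ifngr1 (0.37 for parabiosis against old), Tmem173, the DNA signalling adaptor STING (-1.04 with NMN), and Mb21d1, the DNA sensor cGAS (-0.41 with NMN). For NMN against young limma called 2, the adaptor Ticam1 (-0.40, adjusted p = 0.0441) and the feedback inhibitor Socs3 (-0.94, adjusted p = 0.04), both lower, where 8.15% of all genes were called. Without young replicate 1, young replicate 2 or NMN replicate 3, 0 genes of the whole table were called in that comparison.

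Irf1, a transcription factor that responds to both kinds of interferon, was at 61.3, 41.6 and 18.1 CPM in the young libraries, 76.7, 69.2 and 17.4 in the untreated old, 16.2, 32.4 and 14.7 with NMN and 132, 55.6 and 27.9 with parabiosis. Parabiosis replicate 1 was the highest library, and the NMN and parabiosis libraries overlapped with the old ones. Its log2 difference for NMN against old was -1.16 ± 0.68 (SE), with an adjusted p of 0.506.

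The genes most tied to interferon gamma moved further in the same libraries. The median level of 16 interferon gamma induced GTPase genes, such as Gbp2 and Igtp, relative to their own 12-library means was 2.15 on the log2 scale in parabiosis replicate 1, -2.11 in young replicate 3 and -1.66 in NMN replicate 3, where the 39 genes were at 0.94, -0.89 and -0.63. Their median log2 differences were 0.43 for old against young, -1.35 for NMN against old, 0.58 for parabiosis against old and 1.92 for parabiosis against NMN. The corresponding medians of 12 MHC class I presentation genes were 0.34, -0.78, 0.45 and 1.19. In both lists 0 genes were called in these comparisons, and whether they differ from the 39 was not tested. Without the libraries with little Xist the GTPase medians were -2.20 for old against young, 0.21 for NMN against old and 2.22 for parabiosis against old, and those of the MHC class I genes were -2.11, 0.84 and 1.91. In the promoter windows of these GTPases, 9 of 11 held the letters searched for above.

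Parabiosis replicates 1 and 3 differed between these lists. The 39 genes were higher in replicate 1 by a median ratio of 1.48, the GTPases by 4.34 and the MHC class I genes by 3.67. Ifit1 and Usp18 were even, with ratios of 0.958 and 0.940, and Rsad2 stood at 1.14, while Igtp stood at 6.73 and Irf1 at 4.72. T and NK markers summed to 25.3 and 5.85 CPM in these 2 libraries and neuronal markers to 1735 and 3195 CPM, and their part in the difference was not tested.

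**Figure D5:**
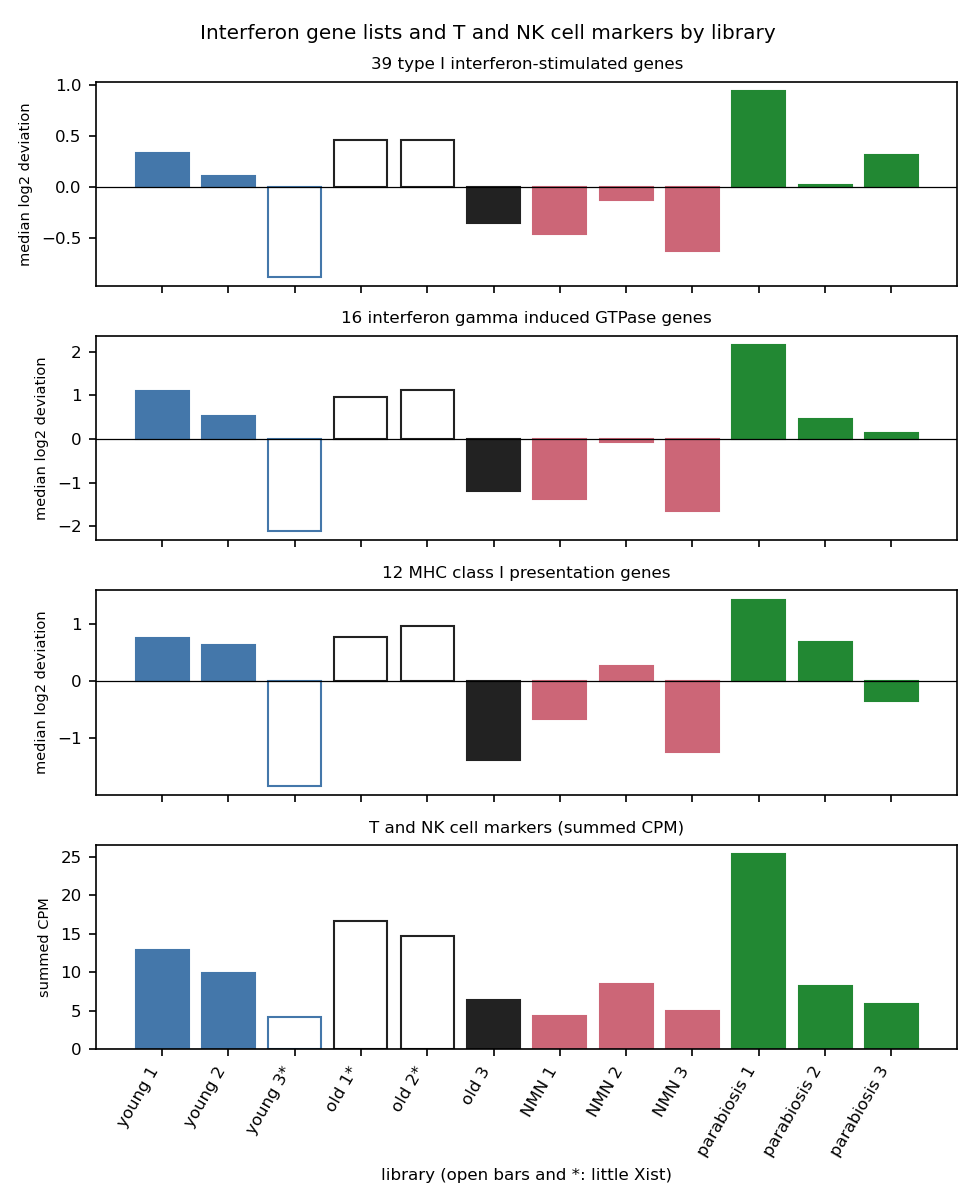
Median log2 deviation from the 12-library mean of the 39 interferon-stimulated genes, of 16 interferon gamma induced GTPase genes and of 12 MHC class I presentation genes, and summed CPM of T and NK cell markers, in each library (open bars are the 3 libraries with little Xist). All 4 panels peak in parabiosis replicate 1 and are low in young replicate 3, and parabiosis replicate 3 is high for the 39 genes but not for T and NK markers.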

How the data were processed

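The libraries were stranded, sequenced as 150 bp read pairs and made from total RNA after ribosomal RNA removal, per the labels' protocols. The submitters' processing notes name RSEM 1.2.15, Bowtie2 2.1.0, edgeR and FastQC and the mouse build mm10 (GRCm38). The deposited values are CPM with TMM scaling, per the labels. No source used here says whether counting used the strand. The table holds 24054 rows, of which 3064 were at 0 in all libraries and 27 had symbols turned into dates, and it has 0 value columns outside the 12 libraries.

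Genes at 1 CPM or more in at least 3 of 12 libraries were kept. Each comparison was a contrast in 1 limma 3.58.1 fit (R 4.3.3, with a trend) of log2(CPM + 1) over all 12 libraries, with 1 mean per group and Benjamini-Hochberg adjustment over all 15232 genes at 0.05. Fold changes are on the log2(CPM + 1) scale, which understates those of low genes. Standard errors and p-values are limma's. CPM is not scaled by length, so levels of different genes are not comparable, and the mean level served only to choose genes for display. Steps between CPM values gave whole reads for 100% of values within 0.01 of a read, and these recovered reads were tested with edgeR 4.0.16 (quasi-likelihood) and DESeq2 1.42.0. The procedure was tested on simulated data in which each gene varied independently, so shifts of many genes in 1 library were not simulated.

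Values in each library are given for the gene with the highest mean in each role, the 4 with the smallest p in each comparison with old and in the test over 4 groups, and Rsad2, Irf7 and Isg15. Oas3 and Zbp1 were named after their values were seen. The values of 1 listed pathway gene are not reported here. The 39 genes, the other lists and this rule were chosen with earlier results of these data known. Alternatives were other pseudocounts (0.25 and 4), no filter or one at 5 CPM, quantile normalization, only the groups compared, a replicate block, leaving out each library, leaving out the 3 libraries with little Xist, and both count tests.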

Additional observations from a re-analysis of the deposited data

How the results depend on the processing

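limma called 0 of the 39 genes in each comparison under the other pseudocounts, filters, quantile normalization, the fits of only the groups compared, the replicate block and edgeR. DESeq2 called 2 for NMN against young, 2 for parabiosis against NMN and 1 over the 4 groups, and leaving out the libraries with little Xist gave 4 for NMN against young. That set moved the medians to -0.63 for old against young, -0.094 for NMN against old and 0.80 for parabiosis against old. Leaving out 1 library gave 0 to 4 called genes for NMN against young and 0 to 1 over the 4 groups. After quantile normalization the median of all genes was -0.156 for NMN against young and -0.104 for parabiosis against young, against -0.014 and 0.011 before it, and the 39 genes were at -0.46 and 0.47. The causes were not tested.

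Over all genes, limma's 1242 calls for NMN against young became 742 with no filter, 29 with only those groups, 93 in edgeR and 2367 in DESeq2, and 0 to 2129 with 1 library left out. Without a filter 3 genes were called over the 4 groups. Without the libraries with little Xist the counts were 2 for parabiosis against old, 327 for parabiosis against young, 2 for parabiosis against NMN and 11 over the 4 groups. DESeq2 called 72, 46 and 44 for old against young, NMN against old and parabiosis against old, 977 for parabiosis against young, 232 for parabiosis against NMN and 1614 over the 4 groups. With 1 library left out the counts ran from 0 to 2 for old against young, 0 to 701 for parabiosis against young, 0 to 1 for parabiosis against NMN and for parabiosis against old, and 0 to 689 over the 4 groups.

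Replicate numbers were not treated as pairs in the main fit. Of 18 correlations between same-numbered libraries, from -0.503 to 0.597, 10 exceeded 0.1. Those for number 2 ran from 0.213 to 0.597. The correlations do not settle whether the numbers mark pairs. With the replicate block 0 of the 39 genes were called, 0, 14, 0, 3, 8 and 28 had an unadjusted p under 0.05 in the order old against young, NMN against old, parabiosis against old, NMN against young, parabiosis against young and parabiosis against NMN (7.84%, 12%, 5.65%, 26%, 18.7% and 11.3% of all genes), and limma called 1376 of all genes for NMN against young.

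Signs of single genes were followed for the 19 genes named by rule, in the comparisons of old against young, NMN against old and parabiosis against old. Over all 39, the number above 0 went from 36, 0 and 37 in these comparisons to 0, 17 and 38 without the libraries with little Xist, and to 14 for parabiosis against old without old replicate 3. For old against young without the libraries with little Xist, the log2 differences were -0.75 for Ifitm3, -0.70 for Ifit3, -1.06 for Parp14, -0.72 for Oasl2, -0.68 for Lgals3bp, -0.28 for Stat2, -0.63 for Ifih1, -0.16 for Trim25, -0.087 for Mx1, -0.56 for Rsad2, -0.28 for Eif2ak2, -0.44 for Ifit2, -0.62 for Samd9l, -0.34 for Trex1, -0.47 for Ifit1, -0.60 for Ifi44, -0.55 for Irf7 and -0.72 for Isg15. For NMN against old they were 0.20 for Ifit3, 0.0037 for Parp14, 0.76 for Lgals3bp, 0.28 for Stat2, 0.29 for Trim25, 0.045 for Ifit2, 0.40 for Trex1 and 0.15 for Ifit1, and for parabiosis against old 0.075 for Eif2ak2. In old against young, Ifi44 was at -0.031 after quantile normalization, -0.17 in edgeR and -0.15 in DESeq2, and Trex1 at -0.11 after quantile normalization.

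With 1 library left out in turn, the log2 differences of those of the 19 genes whose sign changed ran, for old against young, from -1.23 to 0.081 for Mx2, -0.20 to 0.71 for Ifitm3, -0.16 to 0.56 for Ifih1, -0.040 to 0.36 for Rsad2, -0.077 to 0.17 for Eif2ak2, -0.094 to 0.37 for Samd9l, -0.55 to 0.44 for Ifi44, -0.026 to 0.73 for Irf7, -0.11 to 0.73 for Isg15 and -0.044 to 0.30 for Trex1. For NMN against old they ran from -0.62 to 0.074 for Lgals3bp, -0.21 to 0.054 for Trim25 and -0.26 to 0.093 for Trex1. For parabiosis against old they ran from -0.035 to 0.43 for Ifitm3, -0.020 to 0.85 for Ifit3, -0.30 to 0.53 for Parp14, -0.072 to 0.60 for Oasl2, -0.15 to 0.55 for Lgals3bp, -0.21 to 0.34 for Stat2, -0.12 to 0.38 for Mx1, -0.057 to 0.42 for Rsad2, -0.16 to 0.45 for Ifit2, -0.11 to 0.50 for Irf7, -0.25 to 0.14 for Mx2 and -0.29 to 0.014 for Eif2ak2. Of the other values of these 19 genes in the same comparisons, 539 under the remaining alternatives and 643 with 1 library left out kept their sign and their side of the threshold. Many of these signs could not change, so the counts do not measure robustness. A difference of group means stays the same when a library of another group is left out. It is also unchanged by the filters, the fits of only the groups compared and the replicate block. Having 3 libraries a group, with a wide spread within groups, limits what these tests can call.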
